A study of Caenorhabditis elegans with 2 samples.

Results

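The regions described here are clustered PHA-4 regions, places where chromatin immunoprecipitation followed by sequencing (ChIP-seq) found the worm transcription factor PHA-4 at several neighbouring points of the genome. They were chosen by signal and spacing in the authors' pooled list of 30000 regions, which keeps background regions. The strongest 6000 regions were kept, and a region counted as clustered when its summit, the position of highest signal, had at least 2 other of these summits within 2000 bp on the same chromosome. The rule gave 766 clustered regions, after leaving out a run of 27 regions around the pha-4 gene itself. The authors' reproducibility procedure kept 204 of the 766 clustered regions (26.6%), so occupancy by PHA-4 is less certain at the others. The clustered regions were set against 3600 isolated regions, which had no other of the 6000 summits within 2000 bp. The remaining 1607 regions had exactly 1 other summit that near. Since the members were selected on pooled signal and position, their signal and spacing are given as a description, with no test.

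All samples came from 1 group, whole L4 larvae of Caenorhabditis elegans, mixed in sex, of strain OP37 with the genotype unc-119(ed3) III; wgIs37. The insertion wgIs37 carries pha-4 tagged with eGFP, so every animal had the tagged factor and an unc-119 mutant background. The labels name pha-4 as the antibody's target, while the sample description speaks of eGFP-pha-4. There were 2 biological replicates and no second condition. Library fragments ran from 150 to 350 bp, and the number of reads behind each library is unknown. A whole larva mixes all tissues, so the cells in which a region was occupied cannot be told apart.

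PHA-4 is the FoxA forkhead factor of the worm. It is best known for specifying the pharynx, the feeding organ, and it also acts in the intestine and the gonad, in autophagy and in the response to diet. FoxA factors bind a short forkhead consensus and can bind it in closed chromatin, and transcription factors are often found at several sites around 1 gene.

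The sequences below were chosen because they show the range of what lay under clustered summits. Each is the reference sequence of 101 bases centred on a summit, from the RefSeq copy of the ce11 assembly, plus strand, and none overlaps an annotated untranslated region. Capitals mark matches on either strand to the PHA-4 consensus TRTTKRY, in which R stands for either purine, K for G or T and Y for either pyrimidine. Matches that touch or overlap run together. The forkhead word TGTTTAC is 1 of the words that TRTTKRY covers. The 3 clustered regions in fkh-7, which encodes a forkhead factor, all held the consensus, the first of them 5 times.
fkh-7 first region, chrIV:5603489-5603589: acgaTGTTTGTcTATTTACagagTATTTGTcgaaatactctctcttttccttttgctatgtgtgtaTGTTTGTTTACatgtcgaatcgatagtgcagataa
fkh-7 second region, chrIV:5604603-5604703: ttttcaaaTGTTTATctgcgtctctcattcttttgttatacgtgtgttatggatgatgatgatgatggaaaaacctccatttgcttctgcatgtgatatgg
fkh-7 last region, chrIV:5605299-5605399: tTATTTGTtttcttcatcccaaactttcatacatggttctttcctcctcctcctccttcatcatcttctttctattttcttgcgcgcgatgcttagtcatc

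Of the 6 clustered regions of the large cluster at mtm-3, which encodes a myotubularin-type phosphoinositide phosphatase, 4 held the consensus and 2 held TGTTTAC. Those 2 are shown because they lie on opposite sides of the gene's 5′ end, and the window of the jun-1 promoter because it held 3 consensus words side by side.
mtm-3 intron region, chrIII:3797391-3797491: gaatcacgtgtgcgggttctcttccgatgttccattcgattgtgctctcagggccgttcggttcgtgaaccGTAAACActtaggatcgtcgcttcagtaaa
mtm-3 promoter region, chrIII:3801127-3801227: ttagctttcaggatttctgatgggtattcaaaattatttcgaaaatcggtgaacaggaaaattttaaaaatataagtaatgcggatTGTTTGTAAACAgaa
jun-1 promoter region, chrII:9127140-9127240: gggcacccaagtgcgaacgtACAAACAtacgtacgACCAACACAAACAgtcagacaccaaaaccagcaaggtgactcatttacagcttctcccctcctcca

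Strong clustered regions could also lack the consensus. The strongest region of the cluster at the autophagy gene lgg-2 held none, while its neighbour at fic-1 held TGTTTAC. The strongest member of the cluster with the most members, near mdl-1, held none, and nor did the strongest isolated region, at cdc-48.1.
lgg-2 promoter region, chrIV:10936129-10936229: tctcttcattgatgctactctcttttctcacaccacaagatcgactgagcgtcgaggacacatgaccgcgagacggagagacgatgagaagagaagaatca
fic-1 promoter region, chrIV:10936996-10937096: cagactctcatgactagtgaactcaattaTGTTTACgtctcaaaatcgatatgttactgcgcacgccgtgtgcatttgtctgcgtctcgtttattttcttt
mdl-1 strongest member, chrX:6748117-6748217: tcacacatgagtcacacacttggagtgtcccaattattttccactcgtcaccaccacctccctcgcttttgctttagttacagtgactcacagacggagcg
cdc-48.1 isolated region, chrII:10563512-10563612: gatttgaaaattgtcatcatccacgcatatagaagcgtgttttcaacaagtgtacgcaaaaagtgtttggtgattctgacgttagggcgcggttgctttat

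The second kind of sequence that recurred was the GA-repeat word GAGAGA, read as TCTCTC on the other strand. In the next windows capitals mark that word only. They come from F35G2.1, where 6 of 9 members held it, and from an intronic stretch of mtm-3, where the repeat fills much of the window.
F35G2.1 member 5, chrIV:12200942-12201042: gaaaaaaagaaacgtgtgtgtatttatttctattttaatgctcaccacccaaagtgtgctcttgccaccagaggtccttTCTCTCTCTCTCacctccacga
F35G2.1 member 6, chrIV:12202103-12202203: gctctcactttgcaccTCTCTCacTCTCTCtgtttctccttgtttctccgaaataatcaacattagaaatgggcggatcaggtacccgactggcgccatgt
mtm-3 repeat region, chrIII:3799341-3799441: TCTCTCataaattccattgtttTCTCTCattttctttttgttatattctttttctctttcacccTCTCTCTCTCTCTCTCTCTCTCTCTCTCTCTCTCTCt

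The 766 clustered regions fell into 293 clusters, each a chain of summits with gaps of at most 2000 bp that holds at least 1 member. The chains held 1079 regions in all, of which 313 were flanking regions with too few neighbours to be members. Most chains were small: 193 had 3 regions, 51 had 4 and 49 had 5 or more, up to 12. By members, 105 clusters had 1, 106 had 3, and 27 had 5 or more. A chain spanned a median of 2495 bp, from 782 to 12427 bp.

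Adjacent summits within the chains lay a median of 1016.5 bp apart, with quartiles of 682.75 and 1420.75 bp over 786 gaps. Only 44 gaps (5.60%) were under 400 bp, and 36 pairs of adjacent regions (4.58%) overlapped. The median width was 310 bp in clustered regions and 310 bp in isolated regions. The nearest other summit lay a median of 725 bp away for members (199 to 1829) and 6305.5 bp away for isolated regions (2001 to 162036).

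**Figure D1:**
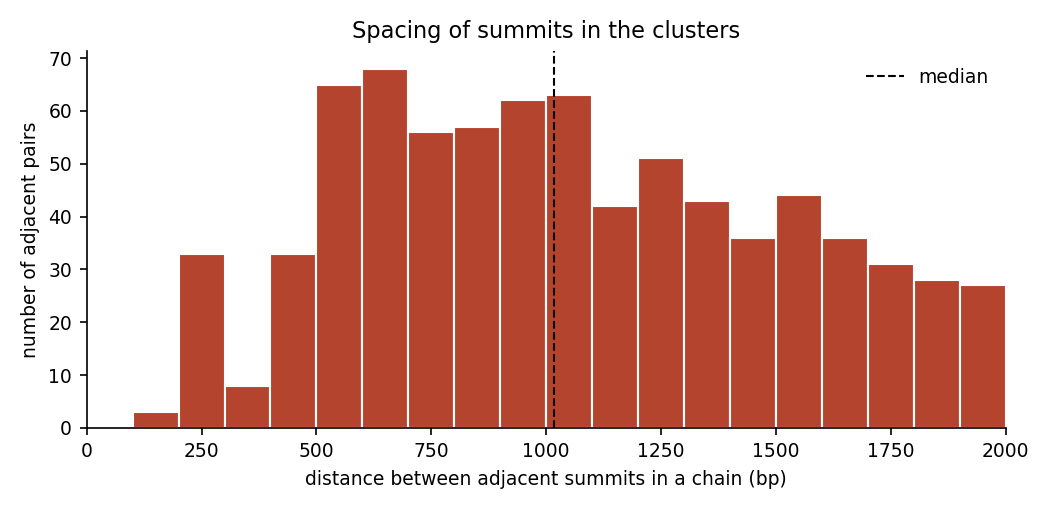
Number of adjacent summit pairs (vertical axis) by the distance between them in bp (horizontal axis, bins of 100 bp) for the 786 gaps in the 293 clusters. The dashed line is the median of 1016.5 bp, and few pairs lie under 400 bp.

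Clustered regions were about as strong as isolated ones. Signal is the authors' value for each region in the pooled list, and its scale is not stated. Its median was 18.6 in clustered regions (quartiles 14.2 and 27, highest 106.9) and 18.3 in isolated regions (quartiles 13.9 and 25.9, highest 127.4). At the lower limit of the choice, the region ranked 6000 had a signal of 11.3664 and the next region 11.3652. Within the 188 clusters of at least 2 members, the strongest member had a median of 2.09 times the signal of the weakest, with quartiles of 1.55 and 2.84 and a highest ratio of 8.97.

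A region of the replicate's own list lay within 150 bp in both replicates for 622 clustered regions (81.2%) and 3082 isolated regions (85.6%). Only 2 clustered and 3 isolated regions had no such match in either replicate. Where both matched, replicate 1 had a median signal of 10.9 and replicate 2 of 9.76 at clustered regions, and 10.01 and 9.13 at isolated regions. The log2 ratio of replicate 1 to replicate 2 had a median of 0.14 (SD 1.03) at clustered regions and 0.15 (SD 0.97) at isolated regions. The clustered state itself recurred less often than the regions did. When the rule was applied to each replicate's own list, 417 members (54.4%) were clustered in replicate 1, 352 (46.0%) in replicate 2 and 203 (26.5%) in both. Of the isolated regions, 0.722% were clustered in replicate 1, 0.611% in replicate 2 and 1 region in both. The authors' list of regions kept by the irreproducible discovery rate (IDR) procedure holds the pooled list's strongest regions, so membership in it follows signal. It held 204 clustered regions (26.6%) and 899 isolated regions (24.97%), and 145 clusters (49.5%) had at least 1 such region.

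Clustered regions lay less often in the promoter windows of protein-coding genes than isolated regions did. More of them fell in classes assigned after that one, namely non-coding RNA windows, introns and exons. Summits were classed in a fixed order. Promoter windows, from 1000 bp upstream to 200 bp downstream of a transcript's 5′ end, came first, those of protein-coding genes before those of non-coding RNA genes. Then came exons, introns and what was left, the intergenic sequence. A summit entered a later class only when it lay outside the earlier ones. A lower promoter share therefore leaves more regions to the later classes. Shares outside protein-coding promoter windows alone were not compared. Members of 1 cluster share a neighbourhood, so the tests used 1 region per cluster, the member with the lowest coordinate, in Fisher's exact test, two-sided, with p-values adjusted over the 5 classes. The p-values treat regions as units and do not measure the spread between replicates, and intervals are exact 95% binomial intervals that cover counting error only.

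Protein-coding promoter windows held 135 of the 293 cluster regions (46.1%, 40.3 to 51.97%) and 2284 of the 3600 isolated regions (63.4%, 61.8 to 65.0%; adjusted exact p = 4.53e-08). Over all 766 members the share was 40.9%. The difference missed the threshold when the distance was set to 1000 bp (47% against 58.5%, adjusted exact p = 0.0599). Non-coding RNA windows held 49 cluster regions (16.7%) and 358 isolated regions (9.94%; adjusted exact p = 0.00166), and 20.1% of all members. This difference missed the threshold at 1000 bp, with at least 3 other summits and in the outer chromosome arms alone (adjusted exact p from 0.0918 to 0.101). Introns held 41 cluster regions (13.99%) and 294 isolated regions (8.17%; adjusted exact p = 0.00253), and 14.8% of all members. With a promoter window that reached 2000 bp upstream, introns held 6.48% against 5% (adjusted exact p = 0.448), and the difference also missed the threshold for the strongest member of each cluster (adjusted exact p = 0.0606), in autosome centres alone (adjusted exact p = 0.0876) and in outer arms alone (adjusted exact p = 0.0877).

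Exons held 16 cluster regions (5.46%) and 110 isolated regions (3.06%; adjusted exact p = 0.0462), close to the threshold of 0.05, and several alternatives lost this difference. Of the 37 exonic members, 19 lay in coding sequence and 12 in untranslated sequence alone, against 44 and 60 of the 110 exonic isolated regions. Intergenic sequence held 52 cluster regions (17.7%) and 554 isolated regions (15.4%; adjusted exact p = 0.277), which is no difference past the threshold. Over all members it was 19.5%, and among IDR regions alone 24.1% against 12.5% (adjusted exact p = 0.000733).

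**Figure D2:**
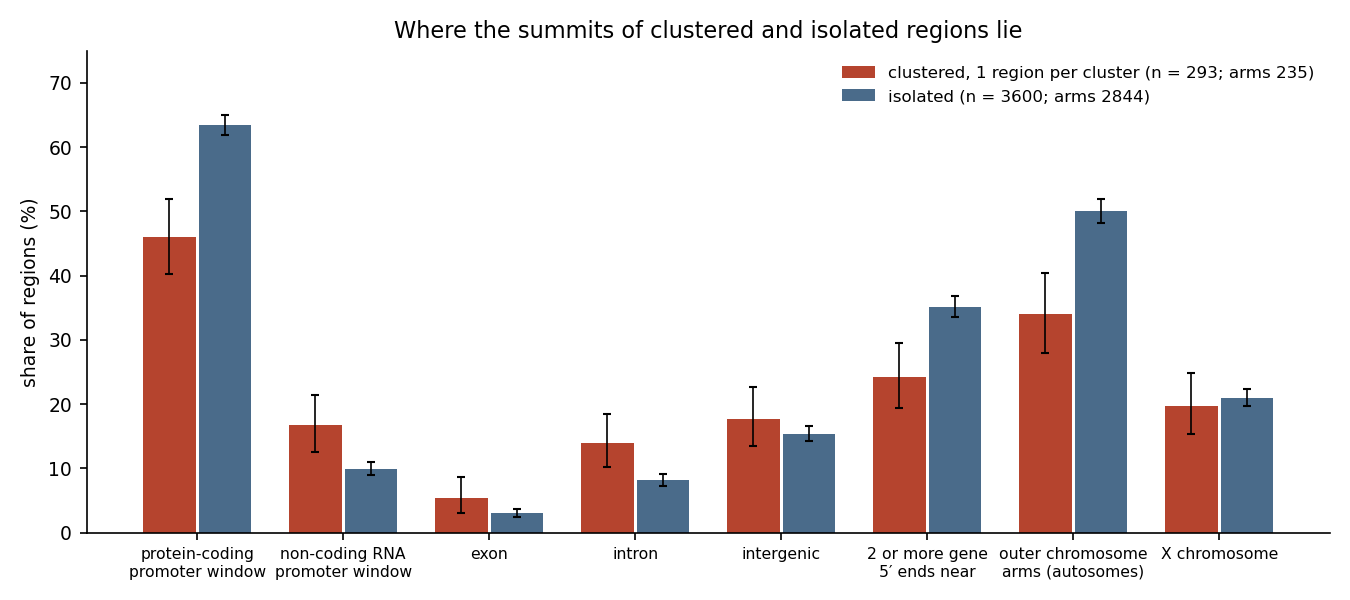
Share of regions (vertical axis, %) in each location class, near 2 or more gene 5′ ends, in the outer autosome arms and on the X chromosome, for 1 region per cluster (left bars) and isolated regions (right bars). Error bars are exact 95% binomial intervals, and the cluster bars are lower for promoters, crowded 5′ ends and outer arms.

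The surroundings of clustered regions were roomier. A median of 984.5 bp separated a clustered summit from the nearest protein-coding 5′ end, against 360.5 bp for an isolated summit. For summits outside protein-coding genes, the gap between the flanking genes had a median of 5141 bp at clustered regions (n = 429) and 1846.5 bp at isolated regions (n = 2528). Summits inside genes lay in hosts with a median length of 8706 bp (n = 337, clustered) and 6644.5 bp (n = 1072, isolated). These clustered medians count all members, so a long gap or host enters once per member. With 1 region per cluster, the median distance was 817 bp, the median gap 5041 bp (n = 162) and the median host length 7579 bp (n = 131). At least 2 protein-coding genes had a 5′ end within 2000 bp of 71 cluster regions (24.2%) and of 1267 isolated regions (35.2%; exact p = 0.000118, the only test of its family). This difference missed the threshold in replicate 1's own list (29.2% against 32.8%, exact p = 0.215), in the outer arms alone (28.8% against 36.4%, exact p = 0.188), at 1000 bp (exact p = 0.334) and with at least 3 other summits (exact p = 0.213). A summit lay in the promoter windows of 2 or more genes at once in 33 members (4.31%) and 662 isolated regions (18.4%).

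The share in protein-coding promoter windows was lower with each further neighbour. That in non-coding RNA windows was higher, though hardly so between 2 and 3 other summits. Only summits outside protein-coding promoter windows could enter the latter class, so the 2 orders are not separate. From 0 through 1, 2, 3 and 4 or more other summits within 2000 bp, the share in protein-coding promoter windows was 63.4%, 49.0%, 43.1%, 35.8% and 30%. The share in non-coding RNA windows over the same steps was 9.94%, 13.6%, 19.5%, 19.8% and 30%. Introns held 8.17%, 13.9%, 13.1%, 20.4% and 15%, and intergenic sequence 15.4%, 19.9%, 19.9%, 19.1% and 15%, with no such order. The last step holds only 40 regions, and regions of 1 cluster enter several steps, so no test was made on this order.

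**Figure D3:**
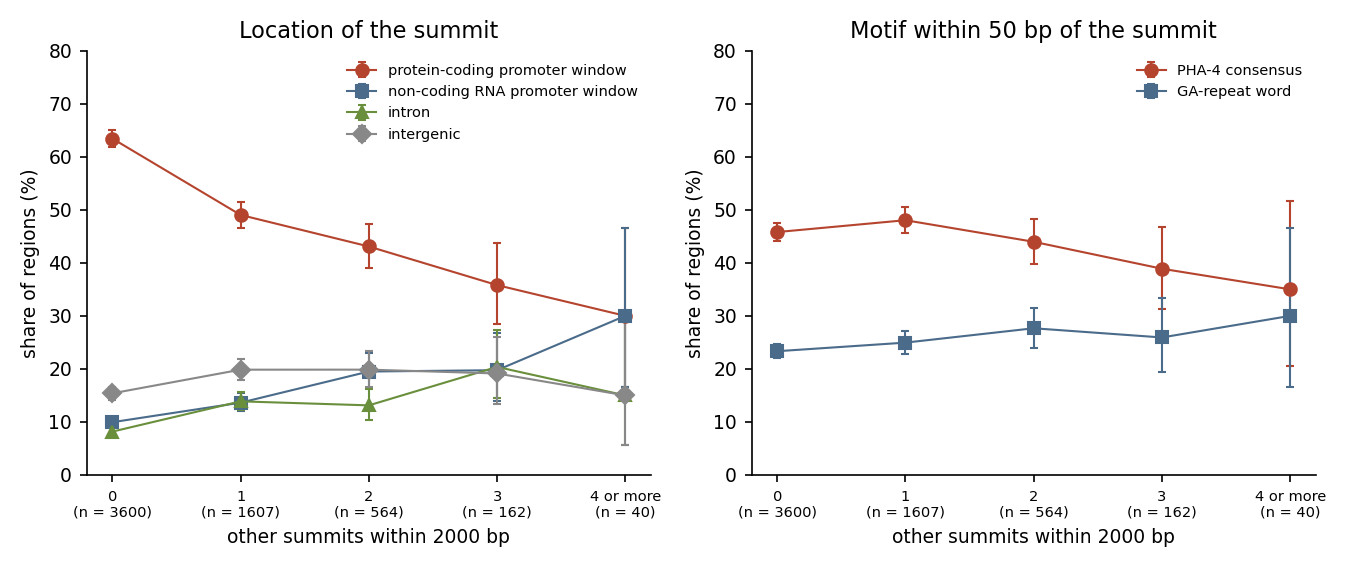
Share of regions (vertical axes, %) by the number of other summits within 2000 bp (horizontal axes), for 4 location classes on the left and for the PHA-4 consensus and the GA-repeat word on the right. Error bars are exact 95% binomial intervals that treat regions as independent, and the protein-coding promoter share is 63.4% with no other summit and 30% with 4 or more.

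Clusters were also placed differently along the chromosomes. The outer 30% of an autosome at each end held 80 autosomal cluster regions (34.04%) and 1424 autosomal isolated regions (50.1%; adjusted exact p = 4.85e-06). The promoter difference stood in both compartments, chosen for a check after the data were seen. It was 48.4% against 69.0% in autosome centres (adjusted exact p = 2.77e-06) and 47.5% against 63.6% in outer arms (adjusted exact p = 0.0297). The X chromosome held 58 cluster regions (19.8%) and 756 isolated regions (21%; adjusted exact p = 0.655).

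With the same region per cluster, a distance of 2000 bp and windows of 101 bp, no motif difference between cluster regions and isolated regions passed the threshold, though some other settings gave one. The windows of 101 bp around the summits were searched on both strands for the consensus TRTTKRY, its forkhead word TGTTTAC, the GATA-type word TGATAA, the E-box CACGTG and the GA-repeat word GAGAGA. The consensus stood in 44.0% of cluster regions (38.3 to 49.9%) and 45.8% of isolated regions (44.2 to 47.5%), against 25.9% of 100263 windows of the same length spaced along the genome. TGTTTAC stood in 5.46% and 6.17%, against 1.22% of genome windows. TGATAA stood in 13.7% and 12.1%, against 9.36%, CACGTG in 4.78% and 3.33%, against 1.69%, and GAGAGA in 23.9% and 23.3%, against 5.02%. All 5 comparisons had an adjusted exact p of 0.830. The median G+C content was 42.6% in clustered and 42.6% in isolated windows. Over all members, GAGAGA stood in 27.4% and CACGTG in 5.22%, which differed from isolated regions at an adjusted exact p = 0.0440 in both cases, but members of 1 cluster are not independent. For the strongest member of each cluster GAGAGA stood in 30.4% against 23.3% (adjusted exact p = 0.0412). At a distance of 3000 bp CACGTG stood in 5.95% of cluster regions and 3.001% of isolated regions (adjusted exact p = 0.0174), and with windows of 100 bp to each side of the summit in 9.90% and 5.39% (adjusted exact p = 0.0179). At a distance of 1000 bp the consensus stood in 32% of cluster regions and 45.9% of isolated regions (adjusted exact p = 0.0302).

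Counts of the consensus per cluster depend on the number of members, since each member adds a window. Over all members 42.4% of windows held it. At least 1 member held TRTTKRY in 195 of the 293 clusters (66.6%), of which 293 clusters 105 had only 1 member. Of the 166 clusters with at least 3 members, 136 had it in some member and 13 in every member. Whether these counts differ from those of unrelated windows with the same share was not tested. Within the 188 clusters of at least 2 members, the strongest member held it in 91 clusters (48.4%) and the weakest in 53 (28.2%). Where the members differed, the strongest alone had it in 60 clusters and the weakest alone in 22. Members were ordered here by the signal that chose them, so these counts are a description with no test.

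The size of that difference, 20.2 percentage points, varied with the list. It was 9.33 points in replicate 2's own list, 3.17 in replicate 1's own list and −13.04 among IDR regions. With the strongest 4000 regions it was 15.3 points, at 1000 bp 12.5 and with at least 3 other summits 16.3. Among clustered regions ranked by signal, the strongest 255 held the consensus in 47.1% and the weakest 255 in 38.04%. For isolated regions the values were 45.6% in the strongest 1200 and 44.3% in the weakest 1200. The strongest member lay in a protein-coding promoter window in 42.6% of clusters and the weakest in 42.02%.

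The largest cluster lay at mdl-1, which encodes a MAD-like basic helix-loop-helix factor, and reached over the neighbouring gene abts-4, an anion transporter. It had 11 members spread over 11525 bp on chromosome X, plus 1 flanking region. Along the strand of mdl-1, member summits lay from 4422 bp upstream of its 5′ end to 7103 bp downstream. Only 1 member was in the promoter window, 137 bp upstream, and its signal was 15.5 (10.5 and 6.72 in replicates 1 and 2). The strongest member was 5816 bp downstream at chrX:6748012-6748321, with a signal of 56.5 (37.7 and 17.8). The weakest, 3356 bp downstream, had a signal of 11.5 and was matched in replicate 2 only (9.47). Thus the members over the abts-4 end of the cluster were stronger than those at the mdl-1 promoter.

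The gene with the most clustered regions was mnk-1, which encodes a kinase of the MNK family, known in mammals for phosphorylating the translation factor eIF4E. Its 11 regions belonged to more than 1 cluster, and the largest held 7 members, 6 of them intronic. The strongest, 5547 bp inside the gene and in the promoter window of an internal transcript start, reached 43.4 (14.9 and 30.8). At mtm-3, 8 clustered regions lay in the promoter window or gene body, with signals from 11.6 to 21.03. The strongest member of the largest cluster there, classed intergenic 1132 bp upstream of the gene, had 27.7 (16.3 and 11.8). Only 2 of the 6 members of that cluster were matched in both replicates, and the other 4 were matched in 1 replicate only. At lin-14, the 7 clustered regions ran from 204 bp upstream of the 5′ end to 17130 bp downstream. The last was the strongest, with a signal of 51.04 (24.9 and 23.3), and the promoter region had 36.2 (11.97 and 22.3).

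**Figure D4:**
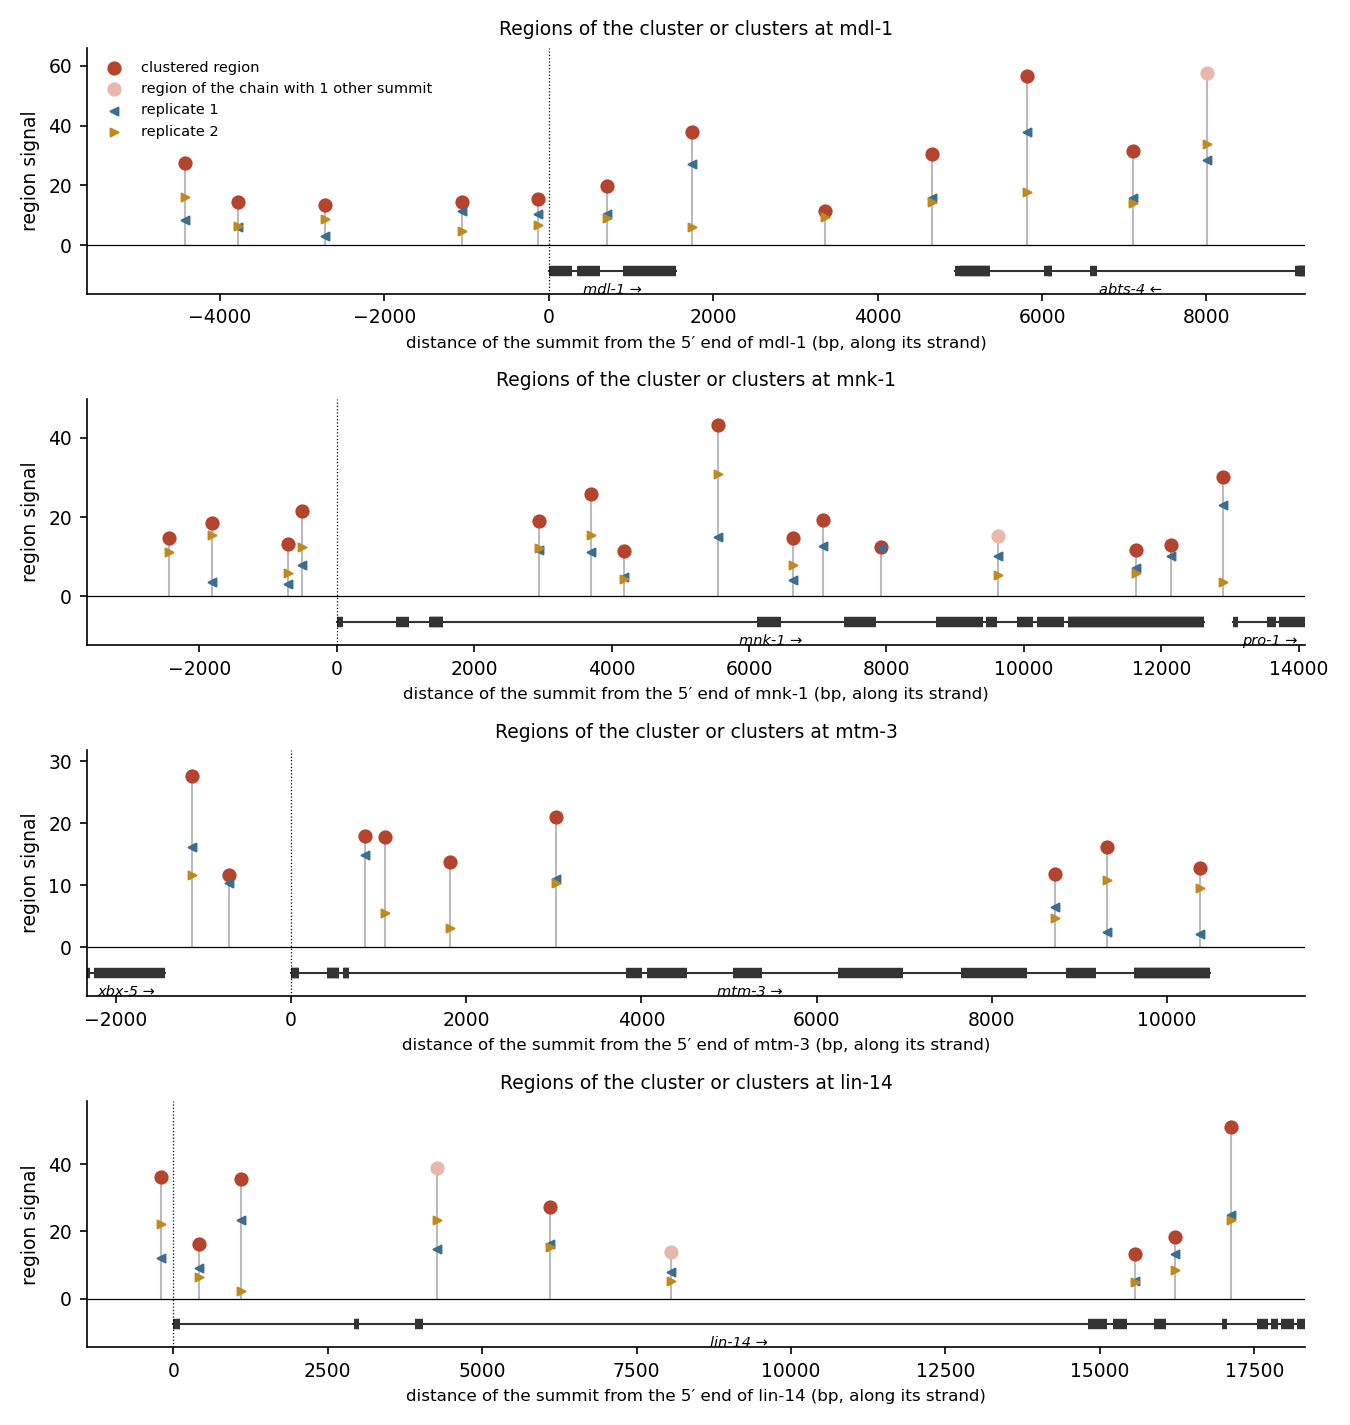
Signal of each region (vertical axes, authors' units) against the distance of its summit from the gene's 5′ end in bp (horizontal axes) at mdl-1, mnk-1, mtm-3 and lin-14. Large points are the pooled list, triangles the replicates' matched regions, dark bars exons of all transcripts and thin lines genes. Regions are spread over introns and flanks and few sit at the 5′ end.

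In several large clusters most members lay outside protein-coding promoter windows. The 9 members of the cluster in T28B11.1 were all in windows of non-coding RNA genes inside this host gene, with signals from 11.95 to 28.6. The cluster at W06H8.6 had 9 members with signals from 11.5 to 38.9, of which 2 lay in its promoter window and 6 held the consensus. The cluster at F35G2.1 had 9 members, and the highest signal was 27.2. At dlg-1, which encodes the junction scaffold Discs large, 5 members lay upstream of the 5′ end and 2 inside the gene. All 7 were matched in both replicates, and 6 lay in non-coding RNA windows. The 7 members at ego-1, which encodes an RNA-directed RNA polymerase, and F26A3.4 were also all matched in both replicates, and the strongest, 2846 bp upstream of F26A3.4, had 44.9 (25.1 and 19.8). At F53H2.3, 5 of 7 members were intergenic, and the strongest, 6260 bp upstream, had 33.1 (14.9 and 18.5). At hsp-1 and clec-196, a C-type lectin gene, 3 of 6 members were matched in both replicates, and the strongest lay in the hsp-1 promoter window. The cluster at lpin-1, the worm lipin, and letm-1 had 6 members, of which 4 were intergenic. In all, 66 clusters (22.5%) had no member or flanking region in a protein-coding promoter window, 140 reached 1 gene that way and 87 reached 2 or more. Of the 166 clusters with at least 3 members, 119 (71.7%) mixed location classes.

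The strongest clustered region reached a signal of 106.9 (replicate 1, 45.2, and replicate 2, 61.2). It lay in a window that Y17G9B.5 shares with the ribosomal gene rpl-20, at chrIV:4750003-4750171. Its cluster went on to the promoter of cyc-2.1, a cytochrome c gene. The members there had 13.5, matched in replicate 1 only (12.6), and 11.9, matched in replicate 2 only (9.93). The region upstream of ZK370.4 had 79.98 (38.3 and 37.2). A region between the 5′ ends of W06F12.2 and W06F12.3, in the window of the non-coding RNA gene W06F12.5, had 76.9 (46.2 and 29.9). The promoter region of lgg-2, a worm homologue of the autophagy protein LC3, had 75.5 (39.7 and 38.6). The window shared by hsp-110, an Hsp110 chaperone, and rpn-3, a proteasome subunit, had 73.9, with unequal replicates of 57.9 and 16.6. The strongest of the 3 regions in fkh-7 had 73.0 (31.3 and 43.6), and all 3 were IDR regions. An intergenic region 4656 bp upstream of egrh-1, an EGR-type zinc finger gene, had 69.3 (49.8 and 21.7). A region 2317 bp upstream of din-1, a corepressor that partners the nuclear receptor DAF-12, had 68.4 (44.9 and 20.2). An intergenic region 2354 bp upstream of ZK1073.1 had 58.1 (24.5 and 35.9), and one 2861 bp upstream of gldi-3, in a cluster of 5 members that reaches towards mtrr-1, had 57.5 (27.1 and 26.3). The jun-1 promoter, of a Jun-family AP-1 gene, had 59.9 (31.6 and 29.3). The regions at ZK370.4, egrh-1 and jun-1 were each the only member of their cluster, beside flanking regions. A cluster of 5 members over the non-coding RNA gene C30E1.9 reached 64.6, with 3 members in its exons.

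The 5 strongest isolated regions all lay in promoter windows. At cdc-48.1, the p97 segregase, the summit lay just upstream of the 5′ end with a signal of 127.4 (67.3 and 58.7). The window shared by ctf-4 and eef-1G, an elongation factor gene, had 99.997 (47.6 and 50.5), the window shared by ekl-4 and the ribosomal gene rps-20 had 95.8, the window shared by rfc-4 and eef-1A.1 had 93.6 (49.5 and 43.6) and that of W08E12.7 had 93.3.

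At gene level, 286 protein-coding genes had a clustered region in the promoter window or the gene body, which is 1.43% of 19973, and 239 had it in the promoter window, which is 1.2%. For isolated regions these shares were 17.2% and 14.8%. Of the 286 genes, 144 had 1 clustered region, 59 had 2 and 83 had 3 or more. The 13 genes with at least 5 were mnk-1, T28B11.1, mtm-3, vhp-1, lin-14, let-526, let-607, hsp-110, W06H8.6, tent-5, daf-12, C07A9.9 and saeg-1. Among these, vhp-1 encodes a MAP kinase phosphatase with 7 regions (highest signal 55.8), let-526 a SWI/SNF chromatin remodelling subunit with 7 (44.3) and let-607 a CREB-H-like factor with 6 (22.8). A longer gene has more room for clustered regions, and this count was not scaled by length.

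Genes of protein synthesis had the highest shares at isolated regions among the 21 lists, and few stood at clusters. Of 81 cytosolic ribosomal protein genes, 2 had a clustered region in the promoter window (2.47%), rpl-20 with a signal of 106.9 and rpl-3 with 11.8, while 56 had an isolated region (69.1%). Of 39 translation factor genes, 1 had a clustered region, eif-2beta with 13.8, and 25 an isolated region (64.1%). The clustered counts are too small to read against the background of 1.2%, while the isolated shares lie far above that of 14.8%.

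Chaperone and autophagy genes stood at both kinds of region. Of 57 chaperone genes, 7 had a clustered promoter region (12.3%) and 20 an isolated one (35.1%). Over all protein-coding genes these shares were 1.2% and 14.8%. At clusters, hsp-110 had a signal of 73.9, hsp-90 53.4 (24.0 and 29.0), the small heat shock gene hsp-16.2 35.6 and hsp-1, the constitutive Hsp70, 33.2 (23.8 and 13.3). The hsp-16.2 region was matched in replicate 1 only (31.0). Of 30 autophagy genes, 5 had a clustered promoter region (16.7%) and 14 an isolated one (46.7%). They were lgg-2 with 75.5, the GABARAP homologue lgg-1 with 49.9 (15.6 and 36.6), the lipid transfer gene atg-2 with 24.6, the TFEB homologue hlh-30 with 16.7 (7.48 and 10.3) and atg-7, an E1-like enzyme gene, with 12.7. The last was matched in replicate 2 only, with 10.6. Of 27 forkhead and GATA genes, 3 had a clustered promoter region (11.1%) and 3 an isolated one (11.1%). Those at clusters were fkh-9 with 34.3, fkh-7 with 29.8 and egl-27 with 14.97. The 5 autophagy and the 3 forkhead and GATA genes at clusters are too few to read against 1.2%. The 7 chaperone genes are also few, and whether their share differs from 1.2% was not tested.

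Tissue and receptor lists had few genes at clusters. Except in the long chemoreceptor list, counts of 1 to 5 genes cannot be read against the background of 1.2%. The shares were 3.13% of pharynx, 2.5% of intestine, 7.41% of muscle, 4.55% of epidermis, 4.17% of neuron and 1.86% of nuclear hormone receptor genes. Among 32 pharynx genes only ceh-22, an NK-2 homeobox gene of pharyngeal muscle, had a clustered promoter region, with a signal of 14.7 (7.85 and 6.62), while 8 had an isolated one. Among 40 intestine genes only erm-1 had one (11.998), and 4 had an isolated one. Of 27 muscle genes, the actin genes act-4 (15.2) and act-3 (12.3) had one, and of 22 epidermis genes ajm-1 (28.2). Among 269 nuclear hormone receptor genes 5 had one, among them nhr-1 (33.3) and nhr-49 (18.8), the regulator of fat metabolism, and 53 had an isolated one. No collagen gene of 156, neuropeptide gene of 140, germline gene of 32, antioxidant and stress gene of 68 or signalling gene of 41 had a clustered promoter region. In lists of these sizes such an absence cannot be read against 1.2% either. The signalling gene sma-9 had a clustered region inside the gene, with a signal of 43.0. Of 1271 chemoreceptor genes 1, srh-2, had a clustered promoter region. The remaining lists had 2 of 37 basic helix-loop-helix genes, 2 of 50 core histone genes, 1 of 86 homeobox genes, 1 of 24 neuron genes and 1 of 22 insulin, TOR and diet genes. Most of the lists are short, they were written by hand, and no test was made of them.

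**Figure D5:**
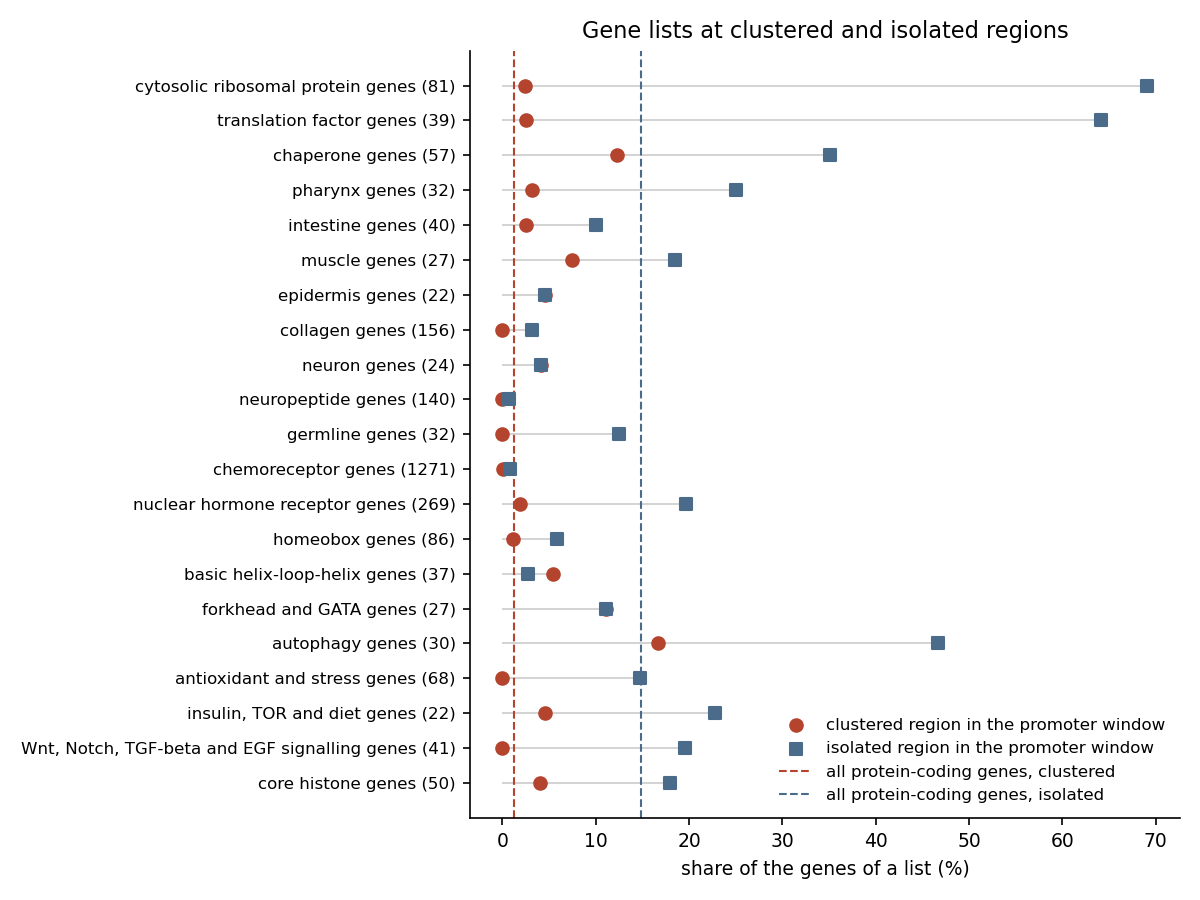
Share of the genes of each list (horizontal axis, %; list sizes in brackets) with a clustered region (circles) or an isolated region (squares) in the promoter window. Dashed lines are the shares of all protein-coding genes, 1.2% for clustered and 14.8% for isolated regions, and ribosomal protein genes stand at 2.47% and 69.1%.

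In both groups, regions in non-coding RNA windows lay mostly at genes of the general ncRNA class. Of the 154 members in such windows, 133 (86.4%) lay at that class, 13 at snoRNA, 13 at piRNA and 12 at miRNA genes. Of the 358 isolated regions in such windows, 254 (70.9%) lay at that class, 21 at snoRNA, 58 at piRNA and 11 at miRNA genes. A summit can count for several classes. tRNA genes had 2 members (0.261% of all members) and 80 isolated regions (2.22% of all isolated regions). lincRNA genes had no member and 10 isolated regions (0.278%). Of 261 annotated miRNA genes, 10 had a clustered region in the promoter window (3.83%) and 27 an isolated one (10.3%). Other non-coding RNA genes, piRNA genes left out, had 2.72% and 9.21%, so the miRNA share as a whole was not far from the background.

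Which miRNAs these were is of interest, since 6 of the 10 were mir-51 to mir-56 and shared 1 seed, the stretch of bases 2 to 8 that pairs with targets. A further pair, let-7 and mir-241, shared another seed, and lin-4 is the founding miRNA of the timing pathway. The tenth, F09A5.15, lies on the opposite strand at mir-55. They were named after their values were seen. Their mature sequences are shown, in genomic letters from RefSeq on ce11, with the seed in capitals, taking for each gene the arm whose seed recurs in the set and for lin-4 the 5′ arm.
mir-51, chrIV:11026074-11026096: tACCCGTAgctcctatccatgtt
mir-52, chrIV:14034024-14034047: cACCCGTAcatatgtttccgtgct
mir-53, chrIV:11027653-11027676: cACCCGTAcatttgtttccgtgct
mir-54, chrX:13145011-13145034: tACCCGTAatcttcataatccgag
mir-55, chrX:13144842-13144864: tACCCGTAtaagtttctgctgag
mir-56, chrX:13144706-13144727: tACCCGTAatgtttccgctgag
let-7, chrX:14744234-14744255: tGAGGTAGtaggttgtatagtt
mir-241, chrV:14366248-14366268: tGAGGTAGgtgcgagaaatga
lin-4, chrII:5902269-5902289: tCCCTGAGacctcaagtgtga

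The mir-51 family lies at 3 places. On chromosome IV, mir-53 had a clustered region 149 bp upstream and with 40.5 (31.1 and 15.8 in replicates 1 and 2), and mir-51, in the same cluster, had one 726 bp upstream with 27.2 (9.25 and 18.1). At mir-52 the summit lay 18 bp inside the 5′ end with 42.8 (28.3 and 17.3). On chromosome X, mir-54, mir-55 and mir-56 are neighbours and share 1 region with a signal of 23.8 (11.999 and 12.3). Thus the 6 genes do not count as 6 separate observations. At let-7, the strongest of 3 clustered regions lay 74 bp upstream of a primary transcript's 5′ end with 51.5 (22.9 and 25.9). At lin-4 the summit nearest the gene, 73 bp upstream, had 18.02 (10.3 and 7.74), and at mir-241 the single region had 16.96 and was matched in replicate 1 only (13.2).

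Some protein-coding genes of the same timing pathway also had clustered regions. The heterochronic genes set which larval stage a cell behaves as, and let-7 and lin-4 act in it by repressing lin-41 and lin-14. Of 16 heterochronic genes listed after the data had been seen, 11 are protein-coding. Of these, 5 had a clustered region in the promoter window or gene body, against 1.43% of all protein-coding genes, while 4 had an isolated one, against 17.2%. In the promoter window alone, 3 of the 11 had a clustered region, against 1.2%, and none an isolated one, against 14.8%. These counts were not scaled by gene length. Of the 5 miRNA genes on the list, 3 had a clustered region in the promoter window, against 3.83% of all miRNA genes, and 1 an isolated one, against 10.3%. Because the list was drawn up with these genes in view, the count is a description only. Beside let-7, lin-4, mir-241 and lin-14 they were lin-28, an RNA-binding protein gene, lin-29, a zinc finger gene, daf-12, a steroid hormone receptor gene, and kin-20, a casein kinase gene. At kin-20 the signals were 40.5 (25.5 and 13.6), 39.7 (22.8 and 15.9) and 13.3, and at daf-12 all 5 regions were intronic, from 13.1 to 29.3. The 4 regions of lin-29 had signals from 11.5 to 29.5, and none lay in its promoter window. No clustered region was found at lin-41, lin-42, lin-46, hbl-1, mir-48, mir-84, dre-1 or puf-9.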

How the data were processed

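The authors deposited region lists for ce10 and ce11, and only the ce11 lists were used. Per the deposited manifests, the pooled list came from both replicates' alignments against a control and keeps background regions. Each region's signal is the value the authors deposited, on a scale the files do not state. Which program called the peaks and at what IDR threshold is not given in the sources used here. Data of the control were not used here. The files hold no read counts, so depth is unknown, and the number of replicates limits the precision.

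From these lists, regions were ranked by signal, and the rule was applied to summits (start plus the deposited offset). Genes came from Ensembl release 115 on WBcel235, whose sequence ce11 shares, with pseudogenes left out, and sequence from RefSeq on the same assembly. A replicate's region was matched within 150 bp of the summit. Shares were tested with two-sided Fisher's exact tests, 1 region per cluster, adjusted by Benjamini and Hochberg within families, with a threshold of 0.05. The code was checked on simulated lists. Genes were named at the 12 clusters with most members, the 12 with the strongest region, up to 4 per gene list and 5 isolated regions. Others, such as lin-14, atg-7, the genes with 5 or more regions, the miRNA genes and the heterochronic list, were named after their values were seen. The members and the 21 gene lists were chosen with earlier results of these data known. Alternatives were the strongest 4000 or 8000 regions, distances of 1000 or 3000 bp, at least 3 other summits, each replicate's own list, IDR regions only, other member choices, a wider promoter window and other motif windows. SciPy 1.17.1, pandas 2.3.3, NumPy 2.4.6 and matplotlib 3.10.9 were run in Python 3.11.15.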

Additional observations from a re-analysis of the deposited data

How the results depend on the processing

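Values are cluster minus isolated shares in percentage points, or strongest minus weakest member. The outer arm difference kept its direction and its side of the threshold in all 12 alternatives (−17.3 to −11.98), and the promoter difference in 16 of 17, the exception being a distance of 1000 bp (−11.5, adjusted exact p = 0.0599). In that setting the intergenic difference was −5.56, the exon difference −0.178, the difference near 2 or more 5′ ends −4.89, the consensus −13.9 (past the threshold) and the promoter share of the strongest member −9.38. The intergenic share passed the threshold with the strongest 4000 (8.67) or 8000 regions (4.26), a distance of 3000 bp (5.99), IDR regions (11.7), all members (4.06), the strongest member (6.80) and replicate 2's own list (7.03), and it was −0.463 in the outer arms. The share near 2 or more 5′ ends missed the threshold with at least 3 other summits (−7.42) and in the outer arms (−7.63). With each replicate's own list, the ranges were 4.08 to 7.03 for intergenic, −9.89 to −3.54 for 2 or more 5′ ends, −0.482 to 2.21 for the X chromosome, −0.329 to 0.248 for TGTTTAC, −0.728 to −0.199 for TGATAA and −1.61 to 3.86 for GAGAGA. The X chromosome difference was 2.97 and 0.171 with 4000 and 8000 regions, 2.40 at 3000 bp and 3.63 for IDR regions. The consensus difference was 2.83 for IDR regions and 0.611 for the strongest member. The strongest member's promoter share differed, with no test, by −2.78 and 6.82 with 4000 and 8000 regions, −2.04 with at least 3 other summits, −1.20 with summits within 300 bp of a stronger one dropped and −6.52 for IDR regions, where the consensus difference was −13.04. TGATAA turned in sign with 4000 regions (−3.07), 1000 bp (−5.48), at least 3 other summits (−7.89), all members (−1.74), the strongest member (−2.50) and windows of 25 bp (−0.706) or 100 bp (−1.62) to each side. TGTTTAC turned at 3000 bp (1.79) and for IDR regions (2.98), GAGAGA at 3000 bp (−0.292), and the exon share with the wider promoter window (−0.579). The cause of these changes was not tested. The compartment splits and the check on regions matched in both replicates were chosen after seeing the data. No paired analysis was possible because there is 1 group.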
